A study of Mus musculus with 16 samples.

Results

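Of the 250313 chromatin regions of 500 bp in the table, 4089 (1.63%) were more accessible in every mTEClo library than in every mTEChi library, whatever the genotype. They were chosen by 3 conditions: the lowest of the 8 mTEClo values exceeded the highest of the 8 mTEChi values, the mean of the 8 mTEClo values was at least 20, and the lowest of all 16 values was under 100. The first condition left 4353 regions, from which the second removed 92 and the third removed 172. Because measured values made the choice, the difference between the sorts is described for these members without a test. The rule did not compare the genotypes inside a sort, and those differences were tested. It still bounded them, because every library, knockouts included, had to keep the order of the sorts. A region where any genotype fell far enough in mTEClo, or rose far enough in mTEChi, was left out.

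Medullary thymic epithelial cells (mTECs) express genes typical of many peripheral tissues, and so show those antigens to developing T cells. Cells with little surface MHC class II (mTEClo) include precursors of the cells with much of it (mTEChi), where most Aire protein, a nuclear regulator of that transcription, is found. Brg1 is an ATPase of SWI/SNF complexes, which slide and evict nucleosomes, and ATAC-seq reads open DNA by where the Tn5 transposase inserts its adapters.

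There were 16 libraries in 8 groups of 2, made up of mTEClo and mTEChi from mice that were Aire-/-, Aire+/+, Brg1-/- or Brg1+/+. All mice were labelled C57BL/6 and were 4 weeks old. Each library came from 60000 thymic cells that were DAPI-negative, CD45-negative, Epcam-positive, UEA-positive and low in Ly51. The sample descriptions call the Brg1+/+ samples NOCRE, so a Cre effect and the loss of Brg1 cannot be told apart, and the Cre driver is not given in the labels. Whether different mice gave the paired libraries is not in the labels, and the p-values therefore reflect no more than how much these samples varied, possibly for technical reasons. No batch is named, the read depth is unknown, and the genotypes and cell types rest on the labels, since positions were not linked to genes here. In bulk libraries fewer cells of a type and less access per cell cannot be told apart.

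Signal at the members was high in mTEClo and lower, but seldom absent, in mTEChi. The mean over the 8 mTEClo libraries had a median of 81.8 over the members, in the authors' normalized units, with a range of 20.1 to 335. Over all regions that median was 11.1, and 79.0% of the members lay in the top 10% of all regions. The mean over the 8 mTEChi libraries had a median of 21.8 over the members and 16.1 over all regions. In that mean 65.1% of the members lay above the median of all regions. Every mTEClo value was at least 100 at 704 members (17.2%), and every mTEChi value was under 10 at 89 members (2.18%). A listed 0 occurred at 24 members, all of them in Aire+/+ mTEChi replicate 2. On the log2(signal + 1) scale the mean of the mTEClo libraries minus the mean of the mTEChi libraries had a median of 1.86, with a range of 0.30 to 3.83. The same difference had a median of -0.33 over the 225281 tested regions. For many members the separation was narrow: the lowest mTEClo value was under 1.1 times the highest mTEChi value at 985 members (24.1%) and at least 2 times that value at 399 (9.76%).

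Strength in mTEClo and contrast between the sorts picked out different members. The member with the highest mean in mTEClo, chr3:27762168-27762667 (mm9, like all positions here), had 398 and 378 in Aire-/- mTEClo, 367 and 365 in Aire+/+ mTEClo, 262 and 268 in Brg1-/- mTEClo, and 292 and 354 in Brg1+/+ mTEClo. In mTEChi it had 121 and 102 in Aire-/-, 53.2 and 113 in Aire+/+, 116 and 119.6 in Brg1-/-, and 115 and 171 in Brg1+/+. It was thus accessible in both sorts. The other 5 of the 6 strongest members were chr1:188410928-188411427, chr7:145409297-145409796, chr6:53523060-53523559, chr9:67665742-67666241 and chr16:92400195-92400694. The member with the largest difference between the sorts, chr18:70143988-70144487, was of moderate strength. It had 52.9 and 64.0 in Aire-/- mTEClo, 88.8 and 109.8 in Aire+/+ mTEClo, 57.6 and 37.1 in Brg1-/- mTEClo, and 135 and 80.2 in Brg1+/+ mTEClo, and its 8 mTEChi values ran up to 10.1 (Aire+/+ replicate 1). Next came chr5:149089694-149090193, chr13:60419736-60420235, chrX:48859556-48860055, chr2:9090343-9090842 and chr7:74073761-74074260. No member stood among both the 6 strongest and the 6 with the largest difference.

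At the edges of the rule the values on both sides were close. The weakest member, chr5:65715520-65716019, had a mean of 20.1 in mTEClo, and the nearest region left out, chr15:55418217-55418716, had 19.9. At chr5:133649071-133649570 the lowest mTEClo value was 75.382 and the highest mTEChi value 75.38, while chr2:180024513-180025012 was left out with 96.221 and 96.228. The member chr4:43058539-43059038 had a lowest value of 99.9 over the 16 libraries, against 100.2 at chr14:76904076-76904575, which was left out.

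Among the 8 mTEClo libraries the Brg1-/- pair had the lowest signal at the members. The library medians over the 4089 members were 64.4 and 63.3 in Brg1-/- mTEClo, against 86.1 and 78.8 in Brg1+/+ mTEClo. They were 82.3 and 88.7 in Aire-/- mTEClo, against 91.9 and 93.7 in Aire+/+ mTEClo. Both knockout pairs lay below both libraries of their own wild type, and only the Brg1-/- pair lay below every other mTEClo library. In mTEChi the medians were much closer: 19.2 and 22.6 in Aire-/-, 22.6 and 24.2 in Aire+/+, 21.5 and 21.9 in Brg1-/-, and 20.7 in both Brg1+/+ libraries.

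**Figure D1:**
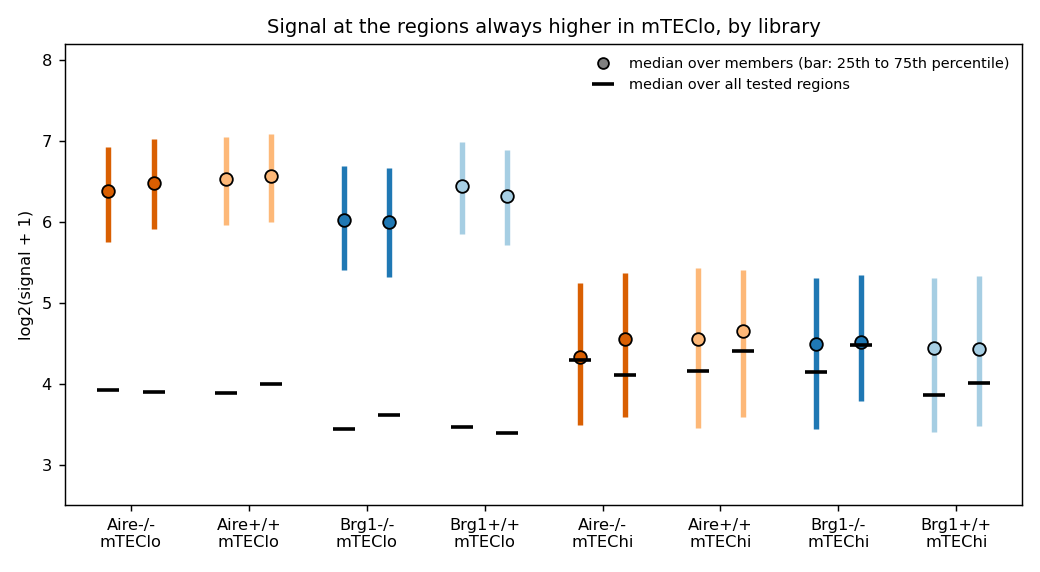
Median log2(signal + 1) over the 4089 members in each of the 16 libraries (points; bars run to the 25th and 75th percentiles of the members, y axis in log2 units), with the median over all tested regions as a black line; mTEClo groups are on the left. The 2 Brg1-/- mTEClo points, at 6.03 and 6.01, are the lowest of the 8 mTEClo points, and the mTEChi points lie between 4.34 and 4.65.

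Brg1-/- was also the lowest at most single members, though not at all. This is a description, because the rule used the lowest mTEClo value. The lowest mTEClo value, which decided whether a region passed, came from a Brg1-/- library at 2652 members (64.9%), from Brg1+/+ at 624 (15.3%), from Aire-/- at 534 (13.1%) and from Aire+/+ at 279 (6.82%). By group means, Brg1-/- was the lowest of the 4 mTEClo groups at 2847 members (69.6%), and Aire+/+ was the highest at 1967 (48.1%). These shares were not computed over all tested regions, where the 2 lines also differed. There the mTEClo library medians were 9.93 and 11.3 in Brg1-/-, 10.1 and 9.47 in Brg1+/+, and 13.8 to 15.0 in the Aire line. Leaving out either Brg1-/- mTEClo library raised the number of regions that meet the rule to 5288 and 5287, while leaving out any other mTEClo library gave 4123 to 4396. The highest mTEChi value came from Aire+/+ at 33.6% of the members, Brg1-/- at 26.6%, Brg1+/+ at 20.3% and Aire-/- at 19.5%, a more even division.

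Loss of Brg1 in mTEClo went with lower signal at most members, by a modest amount. The log2 fold change of Brg1-/- over Brg1+/+ had a median of -0.31 over the members and 0.05 over all tested regions, and it was negative at 3349 members (81.9%) against 47.1% of all tested regions. Both Brg1-/- libraries lay below both Brg1+/+ libraries at 2031 members (49.7%), where 18.4% of all tested regions did so. They lay above at 178 members (4.35%), against 20.6% of all tested regions. On all 20 chromosomes the median was negative, between -0.43 on chromosome 11 and -0.21 on chromosome 10. The median kept its sign when the values were quantile normalized (-0.23) or re-centred on each library's median (-0.42). Its size was bounded by the rule, which left out regions where a Brg1-/- mTEClo library fell to the level of mTEChi. Over regions chosen by the rule in the Aire line alone the median was -0.44.

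Single members seldom passed a test of this difference. With limma over all 16 libraries and two-sided p-values adjusted by Benjamini-Hochberg over the 225281 regions, no member was called at 0.05, where 0.000444% of all tested regions were called lower and 0% higher. With p unadjusted, 189 members (4.62%) were lower at 0.05, against 3% of all tested regions, and 3 (0.0734%) were higher, against 3.15%. The smallest adjusted p of a member in limma was 0.486, at chr5:131099125-131099624. That member had 150.4 and 147 in Brg1-/- mTEClo, against 316 and 275 in Brg1+/+ mTEClo, a log2 fold change of -0.98 (SE 0.25). The knockout values were close to each other and well under the wild-type values. Next in order of p was chr3:28244870-28245369, with 31.6 and 51.0 in Brg1-/- mTEClo and 104 and 144 in Brg1+/+ mTEClo. The 2 members with the smallest p in the other direction were chr8:114123686-114124185, with 202 and 197 in Brg1-/- mTEClo against 108 and 106 in Brg1+/+ mTEClo, and chr7:114835011-114835510, with 102 and 76.0 in Brg1-/- mTEClo against 43.2 and 40.6 in Brg1+/+ mTEClo.

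The fit over all 16 libraries used 1 spread for both sorts, and the sorts differed in spread. At the members the median SD between the 2 libraries of a group was 0.17 to 0.20 in the mTEClo groups and 0.34 to 0.47 in the mTEChi groups (log2 units). The members were chosen for higher signal in mTEClo than in mTEChi, so part of this gap can come from the rule. Over all tested regions it was smaller, with 0.33 to 0.41 in the mTEClo groups and 0.39 to 0.58 in the mTEChi groups. A fit of the 8 mTEClo libraries alone, chosen after seeing the data, called 23 members (0.562%) lower in Brg1-/- and none higher, where 0.0959% and 0.00178% of all tested regions were called. At an unadjusted p under 0.05 it had 1015 members (24.8%) lower and 19 higher, against 6.09% and 4.74% of all tested regions. The 23 calls depended on single libraries. They were lost without either Brg1+/+ library, as were the calls over all tested regions. Without either Brg1-/- library only some of the 23 were kept, although more of all tested regions were called. The median over the members stayed between -0.38 and -0.27 in these 4 fits.

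These 23 members, named after their values were seen, lay on 11 chromosomes and had log2 fold changes from -2.04 to -0.77 and limma adjusted p-values from 0.00852 to 0.0461 in the mTEClo fit. At each of them both Brg1-/- libraries were the lowest of the 8 mTEClo libraries. The choice of the 23 for a fall in these same libraries partly fixes this. The share was not computed over the members or all tested regions. The largest fall was at chr6:91597211-91597710, which had 14.7 and 16.6 in Brg1-/- mTEClo, against 73.5 and 61.7 in Brg1+/+ mTEClo (log2 fold change -2.04, SE 0.36, limma adjusted p 0.0326). Its signal in Brg1-/- mTEClo was thus just above its 8 mTEChi values, which ran from 0.988 to 13.0. At chr5:133810982-133811481 the values were 18.4 and 28.5 in Brg1-/- mTEClo and 73.6 and 118 in Brg1+/+ mTEClo (log2 fold change -1.98, SE 0.34, limma adjusted p 0.0260). Aire-/- mTEClo was also lower there, with 47.9 and 46.9 against 88.4 and 97.4 in Aire+/+ mTEClo, a difference that did not pass the test.

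The smallest adjusted p belonged to a strong member, chr14:29452002-29452501. It had 58.1 and 79.0 in Brg1-/- mTEClo, against 189.9 and 190.5 in Brg1+/+ mTEClo (log2 fold change -1.48, SE 0.20, limma adjusted p 0.00852). In the Aire line it had 259.9 and 343 in Aire-/- mTEClo and 254 and 361 in Aire+/+ mTEClo, which overlapped. Of the 6 strongest members 1 was among the 23, chr7:145409297-145409796, with 192 and 173 in Brg1-/- mTEClo against 315 and 307 in Brg1+/+ mTEClo (log2 fold change -0.77, SE 0.13, limma adjusted p 0.0225). Over the 23 the Brg1 effect in mTEChi was negative at 10 and had a median of 0.07. The Aire effect in mTEClo was negative at 17 of them, with a median of -0.20, and passed the test at none.

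**Figure D2:**
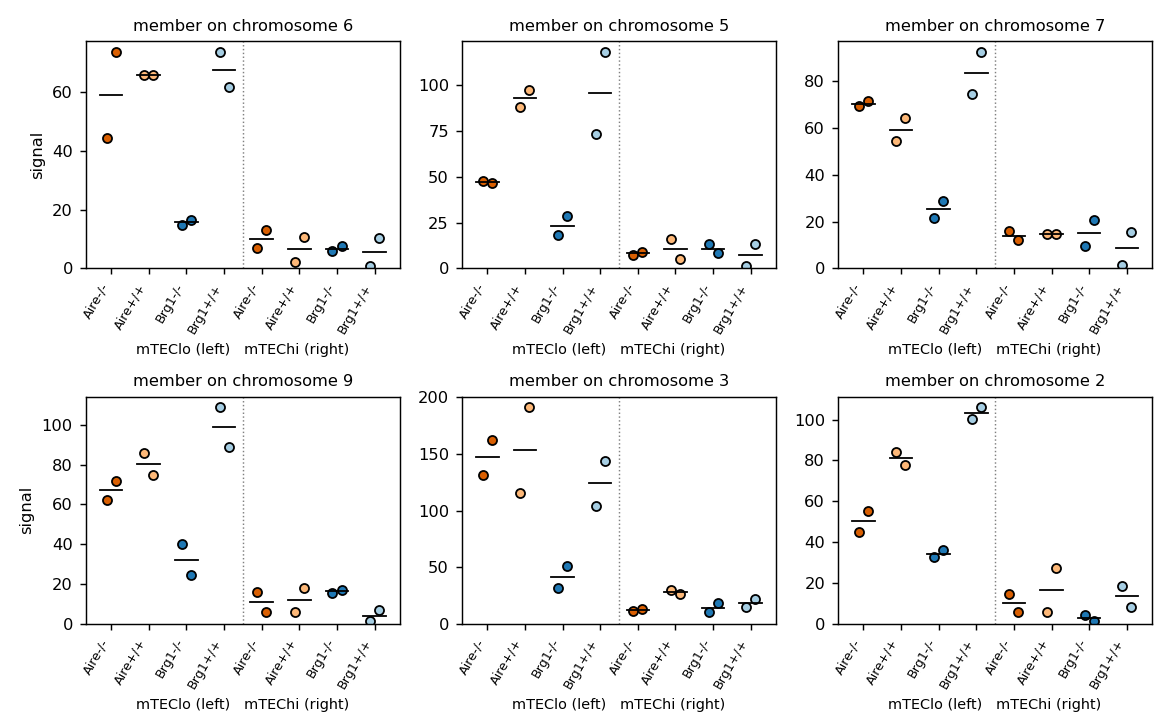
Signal in each library (points, linear y axis from 0, in the authors' units) and group means (lines) at the 6 members with the largest falls among the 23 called with the mTEClo libraries alone, mTEClo groups left of the dotted line and mTEChi groups right of it. In all 6 panels both Brg1-/- mTEClo points lie below the other 6 mTEClo points, which the choice for a fall partly fixes. At the member on chromosome 6 they are at 14.7 and 16.6.

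**Figure D3:**
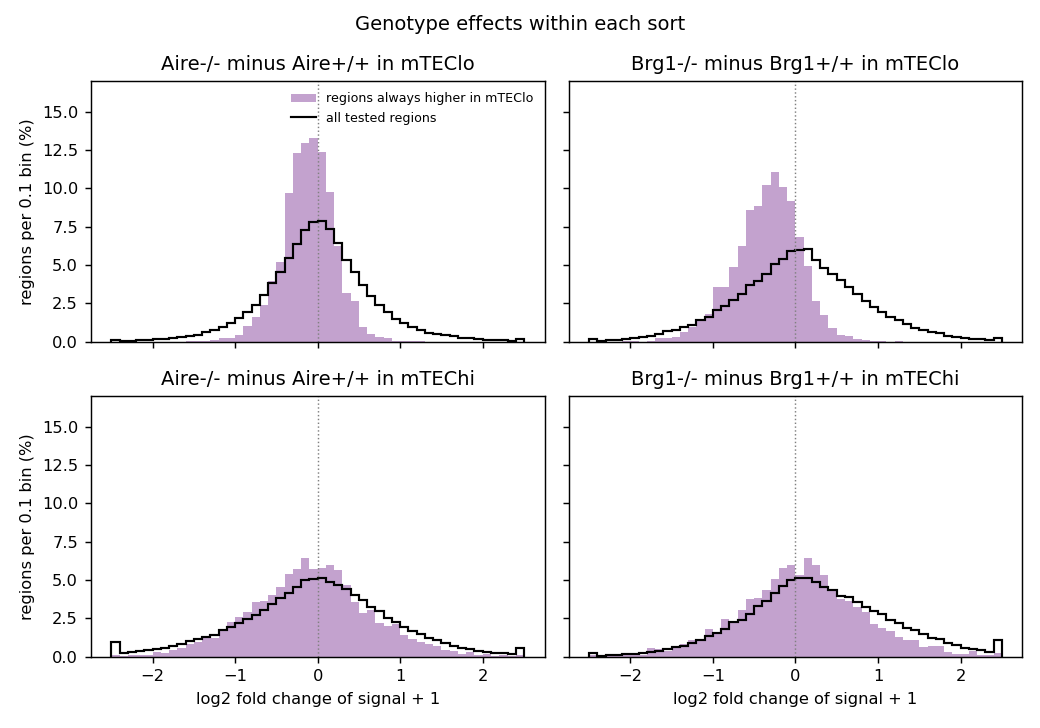
Distribution of the log2 fold changes of the genotypes within each sort (x axis, bins of 0.1; the outermost bins hold everything beyond) as a percentage of the members (filled) and of all tested regions (line). The members' distribution for Brg1-/- minus Brg1+/+ in mTEClo is the one moved to the left, with a median of -0.31.

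The size of the Brg1 effect was also set against the size of the sort difference. Over the members such a split is shaped by the rule, because a knockout value in mTEClo cannot fall far where it must stay above every mTEChi value. The split was therefore made over regions chosen by the same rule in the Aire line alone, a choice added after seeing the data, in which no Brg1 line library had a part. These were 17115 regions and held 4053 of the 4089 members. Over them the log2 fold change of Brg1-/- over Brg1+/+ in mTEClo had a median of -0.44, and 78.9% were negative. In 3 groups of 5705 with the lowest, middle and highest sort difference in the Aire line, the median was -0.26, -0.46 and -0.61, and 70.9%, 79.5% and 86.4% of the regions were negative. For Aire, over the 7552 regions chosen in the Brg1 line, the medians in mTEClo were -0.06, -0.10 and -0.16. These are descriptions over regions, which are not replicates, and the order of the groups was not tested.

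**Figure D4:**
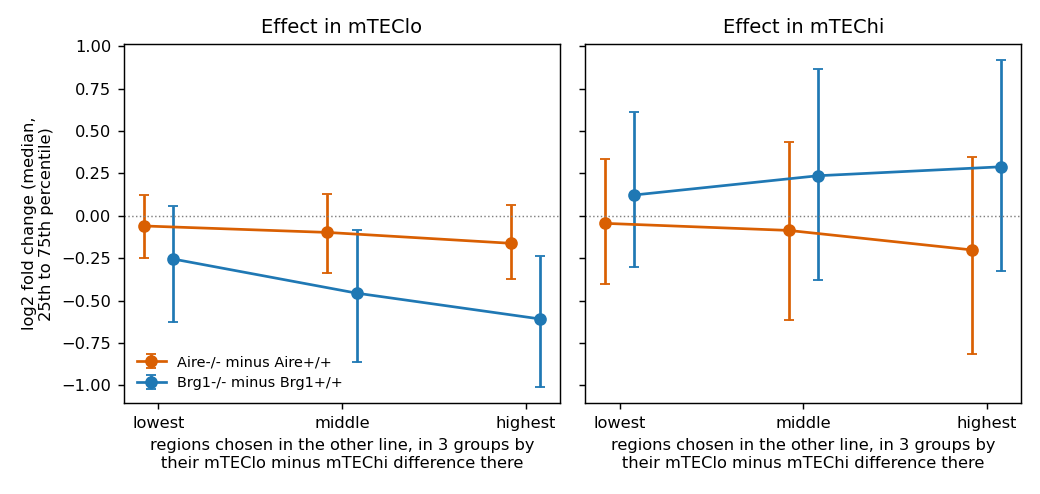
Median genotype effect (points; bars run from the 25th to the 75th percentile of regions) in mTEClo (left) and mTEChi (right), for regions chosen in the line not used for the effect and split into 3 groups by their difference between the sorts there. The Brg1 medians in mTEClo are -0.26, -0.46 and -0.61 from the lowest to the highest group, and in mTEChi the bars of both lines are wide and cross 0.

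Loss of Aire in mTEClo went with a smaller difference of the same sign. The log2 fold change of Aire-/- over Aire+/+ had a median of -0.10 over the members, near 0 over all tested regions, and 63.6% of the members were negative against 50.0% of all. Its size depended on single libraries: the median was -0.05, with 54.8% negative, without Aire-/- mTEClo replicate 1, and -0.14 without replicate 2. Both Aire-/- libraries lay below both Aire+/+ libraries at 1103 members (27.0%) and above them at 389 (9.51%), where 17.1% and 16.8% of all tested regions did so. limma called no member, as it called 0% of all tested regions in either direction, and the mTEClo libraries alone also gave 0 calls. With those alone, 246 members (6.02%) were lower and 37 (0.905%) higher at an unadjusted p under 0.05, against 2.05% and 1.96% of all tested regions. With all 16 libraries at an unadjusted p under 0.05, 12 members were lower and 1 was higher (0.293% and 0.0245%, against 1.21% and 1.29% of all tested regions). Lowest in p was chr12:16049095-16049594, with 55.1 and 59.8 in Aire-/- mTEClo against 161 and 129 in Aire+/+ mTEClo (log2 fold change -1.31, SE 0.45, unadjusted limma p 0.00687). It was followed by chr9:47770470-47770969, with 47.9 and 52.7 in Aire-/- mTEClo against 121 and 132 in Aire+/+ mTEClo. In the other direction the smallest p belonged to chr13:3861520-3862019, with 208 and 297 in Aire-/- mTEClo against 171 and 169.9 in Aire+/+ mTEClo, and to chr4:150676208-150676707, with 173 and 247 in Aire-/- mTEClo against 150.2 and 148 in Aire+/+ mTEClo. Across the 4089 members the Aire and Brg1 effects in mTEClo, which share no library, had a Pearson r of 0.17 and were both negative at 53.6%. Because 63.6% and 81.9% of the members were negative singly, a large joint share needs no relation between the effects. The same values were not computed over all tested regions.

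In mTEChi, where the members had less signal than in mTEClo, the genotype effects were spread about 0. The median of Aire-/- over Aire+/+ was -0.09 over the members and near 0 over all tested regions, and without Aire-/- mTEChi replicate 1 it was 0.01. Both Aire-/- libraries lay below both Aire+/+ libraries at 902 members (22.1%) and above them at 611 (14.9%), where 18.6% and 18.9% of all tested regions did so. With all 16 libraries limma called 3 members higher (0.0734%) and 4 lower (0.0978%), where 0.0111% and 0.00977% of all tested regions were called. That fit pooled the spread with mTEClo, where the members varied less, so its p-values in mTEChi can be too small. At an unadjusted p under 0.05 there were 276 higher (6.75%) and 430 lower (10.5%), against 4.98% and 5.2% of all tested regions. At chr18:69974100-69974599, signal was 33.0 and 28.8 in Aire-/- mTEChi, against 3.13 and 1.53 in Aire+/+ mTEChi (log2 fold change 3.30, SE 0.52, limma adjusted p 0.0344). It also rose at chr3:35124202-35124701, with 28.4 and 48.7 in Aire-/- mTEChi against 3.32 and 7.95 in Aire+/+ mTEChi, and at chr9:114997343-114997842, with 125 and 138 in Aire-/- mTEChi against 59.8 and 49.2 in Aire+/+ mTEChi. At these 3 members, named because they were called, the genotypes did not overlap in mTEChi.

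Of the 4 that fell, chr4:153587611-153588110 had 0.704 and 1.35 in Aire-/- mTEChi, against 17.3 and 28.0 in Aire+/+ mTEChi (log2 fold change -3.52, SE 0.58, limma adjusted p 0.0344). The others were chr5:68235312-68235811, with 15.95 and 5.93 in Aire-/- mTEChi against 51.0 and 63.2 in Aire+/+ mTEChi, chr11:71956411-71956910, with 42.1 and 43.4 in Aire-/- mTEChi against 116 and 106 in Aire+/+ mTEChi, and chr9:70736896-70737395, with 91.9 and 67.6 in Aire-/- mTEChi against 176 and 163 in Aire+/+ mTEChi. In mTEClo none of the 4 was called, and at chr4:153587611-153588110 the genotypes overlapped, with 96.1 and 87.4 in Aire-/- mTEClo and 80.9 and 92.8 in Aire+/+ mTEClo. limma on the 8 mTEChi libraries alone, a fit also chosen after seeing the data, called none of the 7 and no other member, where 0% of all tested regions were called. At an unadjusted p under 0.05 that fit had 63 members higher (1.54%) and 119 lower (2.91%), against 3.73% and 3.37% of all tested regions. Leaving out either Aire+/+ mTEChi library raised the count of calls, over the members and over all tested regions alike. The median over the members was then -0.15 without replicate 1 and -0.11 without replicate 2, the library with the listed zeros.

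The median of Brg1-/- over Brg1+/+ in mTEChi was 0.07 over the members and 0.22 over all tested regions. Its sign depended on the scaling: it was -0.15 after quantile normalization and -0.31 after re-centring. Both Brg1-/- libraries lay above both Brg1+/+ libraries at 808 members (19.8%) and below them at 600 (14.7%), where 24.8% and 11.7% of all tested regions did so. With all 16 libraries limma called 5 members higher (0.122%) and 8 lower (0.196%), where 0.0146% and 0.0111% of all tested regions were called. As for Aire, the spread pooled with mTEClo can make these p-values too small at the members. At an unadjusted p under 0.05 there were 375 higher (9.17%) and 333 lower (8.14%), against 7.8% and 2.9% of all tested regions. This balance turned with the scaling, over the members and over all tested regions. After quantile normalization 209 members were higher and 521 lower, where 10312 and 11809 of all tested regions were. After re-centring 139 were higher and 715 lower, where 7044 and 17448 of all were. The adjusted calls were then 3 higher and 18 lower (29 and 92 of all), and 3 higher and 25 lower (10 and 127 of all). The most extreme was chr11:41751294-41751793, with 2.01 and 1.90 in Brg1-/- mTEChi, against 47.0 and 24.0 in Brg1+/+ mTEChi (log2 fold change -3.55, SE 0.37, limma adjusted p 1.32e-05). The same member was 1 of the 23 that fell in mTEClo, where it had 80.2 and 104 in Brg1-/- against 255 and 204 in Brg1+/+. It was lower in Brg1-/- in both sorts, and its 4 mTEChi values in the Aire line, between 31.9 and 49.9, were also far above the Brg1-/- values.

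The other named falls in Brg1-/- mTEChi were not among the 23 in mTEClo. At chr7:139319158-139319657 the mTEChi values were 25.4 and 34.2 in Brg1-/-, against 107 and 135 in Brg1+/+ (log2 fold change -1.99, SE 0.26, limma adjusted p 0.000968), and the mTEClo values were 232 and 139 in Brg1-/- against 191 and 149 in Brg1+/+, which overlapped. At chr2:60105573-60106072 they were 24.7 and 9.64 in Brg1-/- mTEChi, against 46.5 and 95.3 in Brg1+/+ mTEChi. At chr14:78460099-78460598 they were 23.6 and 17.4 in Brg1-/- mTEChi against 60.5 and 84.1 in Brg1+/+ mTEChi. At chr5:113036846-113037345 they were 16.1 and 23.3 in Brg1-/- mTEChi against 55.5 and 82.6 in Brg1+/+ mTEChi. In mTEChi no knockout value reached a wild-type value at these 4 members, which were named because they were called.

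The 5 members that rose in Brg1-/- mTEChi had little signal in Brg1+/+ mTEChi. At chr18:55012628-55013127 the values were 38.8 and 38.5 in Brg1-/- mTEChi, against 6.43 and 6.65 in Brg1+/+ mTEChi (log2 fold change 2.40, SE 0.36, limma adjusted p 0.00366). At chr18:47369314-47369813 they were 25.8 and 59.9 in Brg1-/- mTEChi, against 5.80 and 2.04 in Brg1+/+ mTEChi (log2 fold change 3.15, SE 0.45, limma adjusted p 0.00294). In both cases the Aire line mTEChi libraries lay between 15.7 and 32.5, above the Brg1+/+ values. The remaining 3 were chr8:11342978-11343477, with 17.7 and 30.3 in Brg1-/- mTEChi against 1.37 and 2.12 in Brg1+/+ mTEChi, chr12:112713333-112713832, with 25.2 and 23.1 in Brg1-/- mTEChi against 3.10 and 1.82 in Brg1+/+ mTEChi, and chr5:66468648-66469147, with 34.5 and 44.0 in Brg1-/- mTEChi against 5.80 and 8.15 in Brg1+/+ mTEChi. limma on the 8 mTEChi libraries alone called none of the 13 and no other member, where 0.000444% of all tested regions were called lower and 0% higher. At an unadjusted p under 0.05 that fit had 92 members higher (2.25%) and 93 lower (2.27%), against 4.95% and 2.14% of all tested regions. Starting from all 16 libraries, leaving out any 1 of the 4 Brg1 line mTEChi libraries raised the count of calls, over the members and over all tested regions alike. The median over the members was then 0.03 to 0.16.

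Whether a genotype acted differently in the sorts was tested as an interaction, the effect in mTEChi minus the effect in mTEClo. For Brg1 this had a median of 0.37 over the members and 0.17 over all tested regions, so at most members the knockout was lower relative to wild type in mTEClo than in mTEChi. limma called no member, where 0% of all tested regions were called in either direction, and at an unadjusted p under 0.05 there were 418 positive (10.2%) and 60 negative members (1.47%), against 4.91% and 2.18% of all tested regions. The smallest adjusted p was 0.220 in limma, at chr7:139319158-139319657. Leaving out Brg1+/+ mTEChi replicate 2 or Brg1-/- mTEChi replicate 2 gave some calls, among the members and over all tested regions. The median over the members was then 0.33 and 0.39. The excess of positive members was much smaller under other scalings. There were 177 positive and 132 negative after quantile normalization, where 6415 and 6855 of all tested regions were. After re-centring there were 206 positive and 121 negative, where 6473 and 8899 of all were. The median was 0.07 after quantile normalization and 0.09 after re-centring. With the values as deposited it was 0.63 over regions chosen in the Aire line alone, where the Brg1 line was not bounded by the rule.

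For Aire the interaction had a median of 0.01 over the members, and limma called none, where 0.000444% of all tested regions were called negative and 0% positive. Without adjustment, at p under 0.05, there were 142 positive and 145 negative members (3.47% and 3.55%, against 2.61% and 2.54%). The member with the smallest p was again chr12:16049095-16049594. Its mTEChi values were 31.0 and 36.6 in Aire-/- and 3.95 and 11.6 in Aire+/+, the reverse of its order in mTEClo (interaction 3.44, SE 0.64, limma adjusted p 0.749). Leaving out Aire+/+ mTEChi replicate 1 or 2 gave some calls, among the members and over all tested regions, and medians over the members of -0.08 and -0.01.

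Within each genotype the median of mTEChi over mTEClo over the members was -1.46 in Brg1-/- and -1.90 in Brg1+/+, and it was -1.91 in Aire-/- and -1.94 in Aire+/+. The rule fixed the sign of this difference and bounded its size, so nothing is read from these values.

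Some members were nearly the same in knockouts and wild types. At chr4:32390567-32391066, which had the smallest genotype effects, the values were 166 and 193 in Aire-/- mTEClo and 179 and 169 in Aire+/+ mTEClo, and 233 and 189 in Brg1-/- mTEClo and 219 and 207 in Brg1+/+ mTEClo. Similar members were chr3:88356667-88357166 and chr10:18564556-18565055. All 3 were strong in both sorts: their group means in mTEChi lay between 65.0 and 124.

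The regions with the opposite pattern, chosen by the same rule with the sorts exchanged, numbered 11081 (4.43%). Their Brg1 effects, as the values were deposited, had medians of 0.15 in mTEClo and -0.13 in mTEChi. Over all tested regions the Brg1 medians were 0.05 and 0.22. In mTEClo the 2 lists thus lay on opposite sides of the median over all tested regions. In mTEChi both lay below it, with 0.07 at the members. The Aire effects at the regions with the opposite pattern had medians of -0.04 in mTEClo and 0.12 in mTEChi, with values near 0 over all tested regions. Regions that were open in every library, 4862 with a lowest value of at least 100, had medians between -0.03 and 0.04 in all 4 comparisons. The differences between these sets and the members were not tested.

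The members were spread over all chromosomes. Their share of a chromosome's regions ran from 0.854% on X (36 members) to 2.08% on chromosome 16 (188), and chromosomes 14 and 11 were low among the autosomes, with 1.24% and 1.28%. Chromosome X was also low, and chromosome 11 high, for the regions with the opposite pattern, at 1.42% and 5.84%. Another member lay within 50 kb of 1644 members (40.2%), while 23.0% of the other regions had a member that near. The number of regions of any kind within 50 kb was similar, with a median of 18 at the members and 17 over all regions. A region always higher in mTEChi lay within 50 kb of 37.9% of the members and of 45.1% of the regions in neither list. The regions always higher in mTEChi also lay near each other, 67.8% of them within 50 kb of another such region, and the lists differ in size. None of these differences was tested.

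Most members nevertheless stood alone. When members with gaps of at most 50 kb were joined, 2434 of 3123 runs held a single member and 15 runs held 5 or more. The longest by number were 8 members among 56 regions at chr10:66360042-66516603 and 8 members among 57 regions at chr12:88116578-88238574, followed by 7 members at chr7:148127353-148234177. Even in these runs most regions were not members. In the chromosome 10 run the Brg1-/- mTEClo mean was below the Brg1+/+ mTEClo mean at 7 of the 8 members. Over all members the log2 fold change was negative at 81.9%, and over those on chromosome 10 at 71.8%, so this count does not set the run apart. At the first member of the run, chr10:66360042-66360541, the values were 38.1 and 43.6 in Brg1-/- mTEClo, against 87.7 and 74.0 in Brg1+/+ mTEClo, which did not overlap. At the sixth, chr10:66457279-66457778, they were 68.5 and 85.9 in Brg1-/- mTEClo against 83.9 and 67.5 in Brg1+/+ mTEClo, which did.

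Other regions near the members had small values by comparison, which the choice of members partly fixes, since a neighbour that passed the rule is itself a member. The mTEClo minus mTEChi median was 1.86 at the members and 0.32 at the 2395 other tested regions within 1 kb, of which 68.4% were higher in mTEClo. From 2 kb on the median was negative, and it was -0.41 at regions over 200 kb away. The median Brg1 effect in mTEClo was -0.01 at the other regions within 1 kb and 0.06 over all other tested regions.

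**Figure D5:**
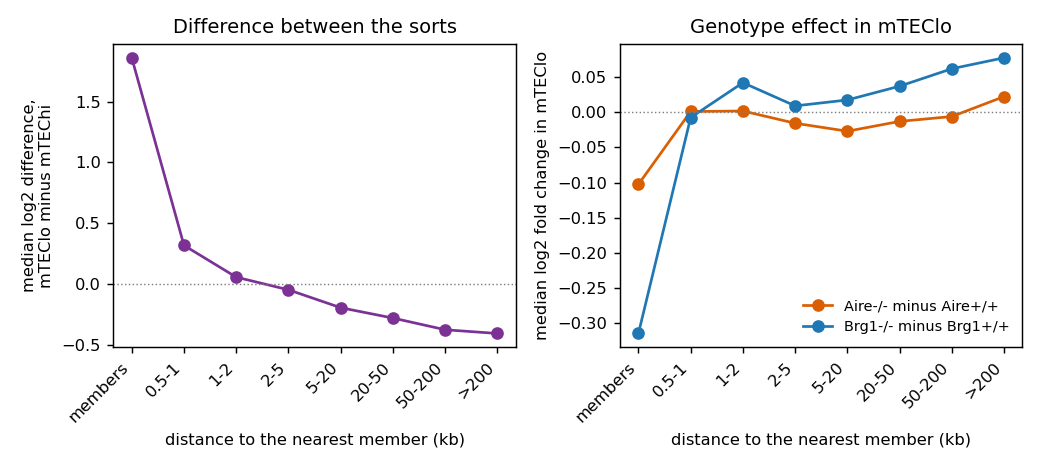
Median difference between the sorts on the log2(signal + 1) scale (left) and median genotype effects in mTEClo (right) at the members and at the other tested regions, by distance from the start of the nearest member in kb. The first point of each line is the members, which were chosen for their difference between the sorts, and the next, the other regions within 1 kb, is at 0.32 for the sorts and -0.01 for Brg1.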

How the data were processed

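ATAC-seq signal was taken from 1 table that the authors deposited, with 1 column per library. Per the submitters' processing notes, Bowtie2, MACS2 and the mm9 genome were used. Versions, settings, the scaling of the signal and any shift of read ends for Tn5 are not given in the sources used here, so the depth behind a value is unknown and no counting error can be stated. Region starts were read as counted from 0 and are printed counted from 1. All 16 columns were mapped to samples by their descriptions, and 0 were left unused.

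The signal was tested as log2(signal + 1), a scale that understates the fold changes of weak regions. Regions under the 10th percentile of mean signal (7.48) were left out, which kept 225281 regions and all 4089 members. limma 3.58.1 in R 4.3.3 fitted 8 group means over 16 libraries, with a trend in the variance and robust estimation, and two-sided p-values were adjusted by Benjamini-Hochberg over all tested regions. The procedure was tested on simulated data in which all 16 libraries shared the same spread at a region. Unequal spread between the sorts and fits within a sort were not simulated. The spread was estimated with 8 residual degrees of freedom. A region was called at an adjusted p under 0.05. Other steps used Python 3.11.15.

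The members and lists were chosen with earlier results of these data known. Regions were named by rule: the 6 strongest members, the 6 with the largest difference between the sorts, up to 5 called members per comparison and direction (where none was called, the 2 with the smallest p), the 3 with the smallest genotype effects, the 3 nearest to each limit of the rule on either side, of which the nearest are printed, and the longest run. Alternatives were pseudocounts of 0.5 and 5, no filter, quantile normalization, re-centring, fewer libraries, a replicate block, leaving out each library, and other limits of the rule. Gene annotation, sequence and marker genes were not analysed here, because the reference tables at hand were of another build.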

Additional observations from a re-analysis of the deposited data

Results flagged for a closer look

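The members' median moved in opposite directions in the 2 sorts when Brg1 was lost. On the log2(signal + 1) scale the mean of the library medians in Brg1-/- minus that in Brg1+/+ was -0.363 in mTEClo and 0.0670 in mTEChi. Both Brg1-/- libraries lay below both Brg1+/+ libraries in mTEClo, and both lay above them in mTEChi. The difference between these 2 shifts of the median was not tested. The per-region interaction test called no member in limma. The shift in mTEChi also changed sign with the scaling, and the median over all tested regions in mTEChi was 0.22 higher in Brg1-/-, more than that of the members.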

How the results depend on the processing

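The number of regions that met the rule was 1140 when the lowest mTEClo value had to be at least 1.5 times the highest mTEChi value, 8945 after quantile normalization, 17115 on the Aire line alone and 7552 on the Brg1 line alone. Quantile normalization turned the balance with the opposite list, which then held 5765 regions, against 11081 as deposited. Leaving out each library gave 4123 to 5288.

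The Brg1 effect in mTEClo kept its sign under every alternative tried. Its median was -0.42 after re-centring, over all libraries and over the mTEClo libraries alone, and -0.44 over regions chosen in the Aire line. The members called with the mTEClo libraries alone were 23, with quantile normalization 8, re-centred 41, with a replicate block 24, and 0 to 17 without single libraries. The smallest count came without a Brg1+/+ library, when its lone partner was assumed to vary like the other groups.

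Calls in mTEChi were unstable. For Aire, 7 calls became 4 with a pseudocount of 0.5, 4 with no filter, 15 after quantile normalization, 1 after re-centring, 0 within the Aire line, 0 within mTEChi, 15 over regions chosen in the other line, and 6 to 115 without single libraries. For Brg1, 13 calls became 6 with a pseudocount of 5, 21 after quantile normalization, 28 after re-centring, 2 within the Brg1 line, 0 within mTEChi, 28 over regions chosen in the other line, and 24 to 42 without single libraries. The Brg1 median in mTEChi was -0.15 after quantile normalization, -0.31 after re-centring, 0.21 over regions chosen in the other line, and 0.028 to 0.16 without single libraries. Interaction calls also changed without single libraries, and the interaction median over the members then ran from -0.076 to 0.097 for Aire and from 0.32 to 0.44 for Brg1. The Brg1 interaction median was 0.071 after quantile normalization, 0.093 after re-centring and 0.63 over regions chosen in the other line. The causes were not tested.

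Replicate numbers did not pair the libraries: correlations of replicate differences between groups ran from -0.018 to 0.034. With a replicate block over all 16 libraries, no member was called in mTEClo, where 0 of all tested regions were called for Aire and 1 for Brg1. In mTEChi 7 members were called for Aire (39 of all) and 11 for Brg1 (37 of all). No member was called for either interaction, where 1 of all tested regions was called for Aire and 0 for Brg1. The depth is unknown and no limit of detection was computed. Fits within 1 sort and regions chosen in 1 line were alternatives added after seeing the data.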
